A study of Drosophila melanogaster with 14 samples.

Results

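The daily cycle of transcripts was followed in the heads of control (w1118) flies, using the 7 control arrays of the 14 in the series. The other 7 arrays, of the fumin (fmn) strain, were not compared here. Adult males and females were kept at 25°C in 12 h of light and 12 h of darkness, where zeitgeber time (ZT) 0 is lights-on and ZT 12 is lights-off. After 4 such cycles flies were frozen at every 4th hour from ZT 0 through ZT 24, and RNA of about 400 pooled heads of both sexes was hybridized to 1 Affymetrix Drosophila Genome 2.0 array per time point. The w1118 strain carries a mutation in the eye color gene white and was not treated further. Male flies were used at 2 to 4 days after eclosion, and whether the pools of both sexes for the arrays were of that age was not stated. As no time was repeated except that ZT 0 and ZT 24 fall at the same phase 1 day apart, the tests rest on the spread of 7 arrays around a fitted curve.

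In the fly clock, the activators Clk and cyc switch on per and tim, whose proteins return to the nucleus and silence their own activators. In a second loop vri represses and Pdp1 activates Clk, and cwo damps the same targets. The blue light receptor cry resets the clock each morning. In the head this loop runs in clock neurons, in photoreceptors, in glia and in the fat body, and it drives the daily transcription of many other genes. In a pool of whole heads fewer cells of a type and less RNA per cell cannot be told apart.

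The control array of ZT 0 stood apart from the other control arrays. It held transcripts of testis, male accessory gland and gut at levels not seen at the other 6 times, ZT 24 included. The summed signal of 16 testis genes was 3020 at ZT 0 and 213 to 430 on the other arrays. The sum of 17 genes of the male accessory gland was 7971 at ZT 0 and 264 to 2068 elsewhere. The sum of 28 gut genes, mostly of digestive enzymes, was 10906 at ZT 0 and 3904 to 5195 elsewhere. Most of the sum elsewhere came from 1 gene, Mal-B2, which had 3876 at ZT 0 and 3252.5 to 4465 on the other arrays. At ZT 0 the signal was above all other control arrays for 11 of the 16 testis genes, 17 of the 17 accessory gland genes and 19 of the 28 gut genes. On these lists only 8, 10 and 12 genes, in that order, reached a signal of 100 on any control array. The counts and the differences that follow thus rest partly on low signals. For each gene the log2 signal at ZT 0 was set against its own median on the other arrays. The medians of these differences over the genes were 3.50, 4.86 and 1.64. The 13 ovary genes did not show this, as their median difference was -0.05 and none reached a signal of 100 on any control array.

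Acp98AB, a seminal fluid protein, had a signal of 1242, 2.82, 11.7, 0.625, 6.84, 2.31 and 2.13 in order of time from ZT 0 to ZT 24, as for all signals below. The testis gene ocn had signals of 398, 4.34, 16.9, 2.24, 2.02, 25.3 and 10.8. The gut protease Jon65Aiv had signals of 1329, 2.88, 3.62, 2.27, 11.1, 2.61 and 2.23. All 3 were well above 100 at ZT 0 and far under it on the other arrays. A pair of the accessory gland genes was also present at 3 other times of the light phase. CG16826 had signals of 1734, 972, 739, 499, 1.25, 1.64 and 0.833, and whe had signals of 2639, 885, 461, 936, 72.2, 48.9 and 52.1. Both were high from ZT 0 to ZT 12 and under 100 from ZT 16 to ZT 24. Cyp4g1, an oenocyte enzyme of hydrocarbon synthesis named after its values were seen, had signals of 4309.8, 65.8, 41.7, 127, 72.1, 29.3 and 88.0. The flight muscle gene fln, also named after its values were seen, had signals of 404, 14.5, 23.3, 30.3, 26.4, 27.0 and 31.3. Both were high at ZT 0 alone. Of the 6 lists of head cell types 5 did not share this pattern. For neurons, photoreceptors, glia, head fat body and hemocytes the same median over genes of the log2 difference lay between -0.12 and -0.01. The summed signal of 6 neuron markers was 12222 to 14283 and that of 3 photoreceptor markers 53707 to 63420 over the 7 arrays. The sixth list, pericuticular muscle, was higher at ZT 0, with a summed signal of 857 against 386 to 571 elsewhere. Of its 2 genes the actin Act88F had signals of 635, 319, 303, 324, 334, 242 and 173, and the troponin TpnC73F had signals of 222, 200.2, 207, 247, 205, 219.8 and 212.

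**Figure D1:**
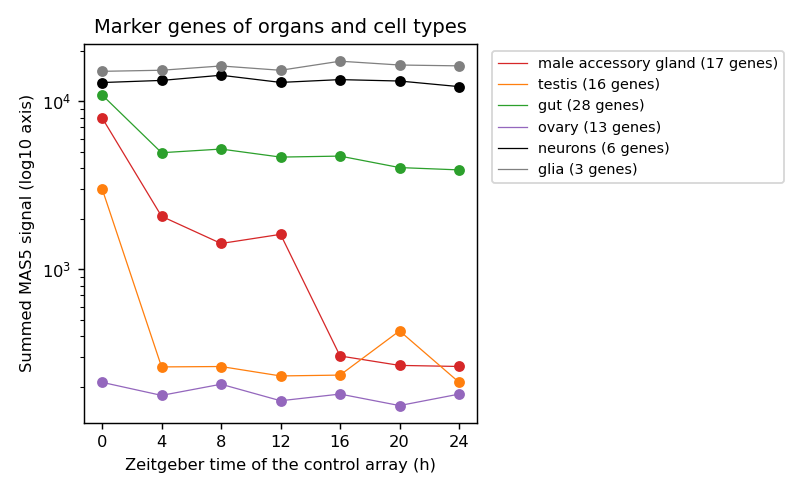
Summed MAS5 signal (log10 axis) of marker genes on the 7 control arrays, by zeitgeber time in hours; each point is 1 array and lines join the points of a list. The accessory gland sum is 7971 at ZT 0 and 264 at ZT 24, the testis sum 3020 and 213, while the neuron and glia sums stay near 12222 to 17314.

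Of 9201 probe sets with a signal of at least 100 on some control array, 186 were at least 2-fold higher at ZT 0 than on every other control array. On each of the other 6 arrays the same count was 0 to 3. A probe set could enter through the ZT 0 array alone, so the count describes that array and is not a test. Of these 186 probe sets, 9 passed the filter for the test of a daily rhythm and 0 were called rhythmic. The fit gives the ZT 0 array and the array of the same phase a day later a shared value. A 2-fold difference between them therefore works against a call by construction. The count of 0 thus cannot show whether transcripts of other organs moved the rhythms of head genes. Counts of rhythmic genes in the lists below are given also without the ZT 0 array.

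Across the head, 251 of 8663 tested probe sets (2.90%) followed a 24 h rhythm. A probe set was tested if the geometric mean of its control signals was at least 100, and the call of a rhythm asked for an adjusted p under 0.05 when limma compared the 24 h curve with a flat line. The unadjusted p was under 0.05 for 1482 probe sets (17.1%). With 1 probe set per gene, the brightest, 214 of 7126 genes (3.003%) were rhythmic. The amplitude, the height of the fitted peak above the daily mean on the log2 scale, had a median of 0.44 in the rhythmic probe sets, from 0.22 to 2.62. Over all tested probe sets its median was 0.10. In 15 of the rhythmic probe sets, the one of largest amplitude (Achl) among them, a signal was under 100 on some array, and for such genes the text gives a lower bound of the change, taken against 100. From peak to trough the fitted change was at least 2-fold in 93 of the rhythmic probe sets and at least 4-fold in 19. A 12 h rhythm was called in 0 probe sets by limma, with an unadjusted p under 0.05 in 199 (2.30%).

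Fitted peaks were spread over the whole day. By windows of 6 h, 77 of the 251 probe sets (0.889% of those tested) peaked around dawn (ZT 21 to 3), 61 (0.704%) in the day (ZT 3 to 9), 58 (0.670%) around dusk (ZT 9 to 15) and 55 (0.635%) at night (ZT 15 to 21). By genes the counts were 63, 55, 50 and 46. The split depended on the scaling of the arrays. It was 75, 52, 59 and 62 with no scaling. With arrays centred on the median it was 66, 50, 87 and 88, with most calls at dusk and at night. That centring shifted the array of ZT 0 by 0.26 on the log2 scale against the mean of the others. Its smallest adjusted p in limma was 2.19e-133, against 0.00126 in the main fit. A p this small from so few arrays cannot be taken at face value, so its split is no equal alternative. In the main fit the fullest 2 h bin was ZT 20 to 22 with 36 probe sets. The bins from ZT 12 to 18 held 13, 11 and 10. Median amplitudes were alike in the 4 windows, from 0.43 to 0.45.

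**Figure D2:**
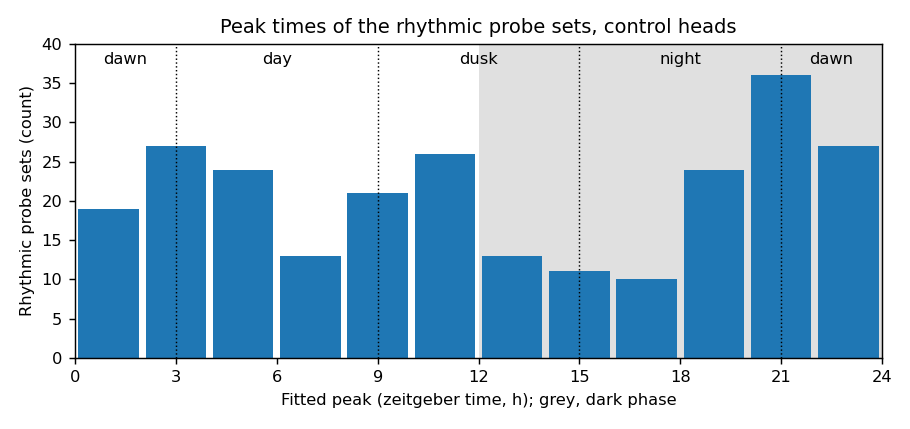
Count of rhythmic probe sets (251 in all) by fitted peak in 2 h bins of zeitgeber time, with dotted lines between the 4 windows and grey for the dark phase. The bin from ZT 20 to 22 is the fullest with 36 and the bin from ZT 16 to 18 holds 10.

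Without the ZT 0 array 104 probe sets were rhythmic, 102 of them among the 251, with 34, 28, 17 and 25 in the 4 windows. By genes the count was 90 of 7126 (1.26%). With any 1 array left out the count lay between 58 (without ZT 16) and 130 (without ZT 24). All 251 kept an unadjusted p under 0.05 with any array left out, and none of their fitted peaks moved by more than 1.11 h. As the 251 were chosen by p with these same arrays, this is a description and no independent support.

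**Figure D3:**
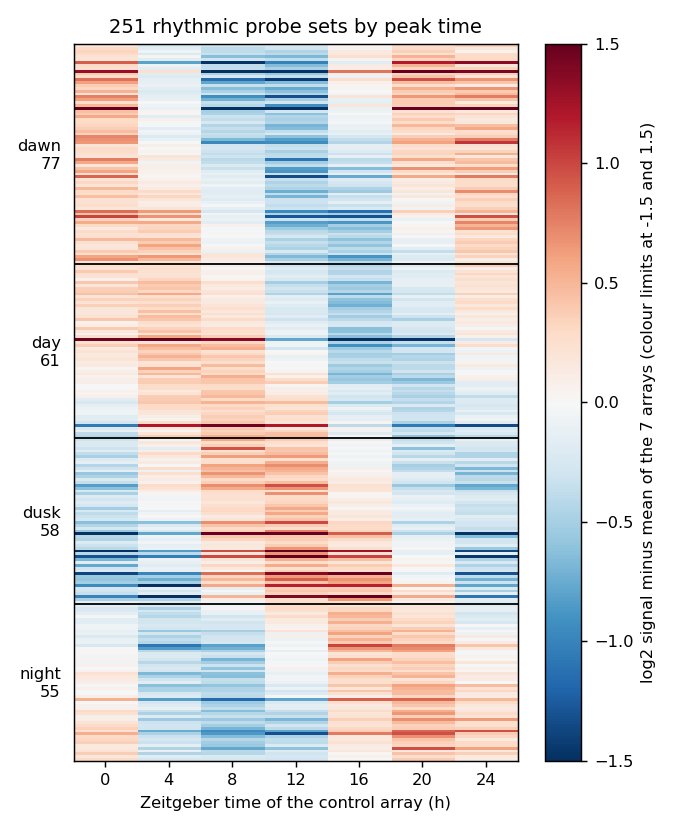
Log2 signal minus the mean of the 7 control arrays for the 251 rhythmic probe sets, in order of fitted peak from ZT 21 (top), with 1 column per array in zeitgeber hours and colors that saturate at the ends of the scale. Rows high at ZT 20, 24 and 0 (dawn, 77 rows) give way to rows high in the light phase (day, 61), around lights-off (dusk, 58) and in the dark (night, 55).

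The arrays of ZT 0 and ZT 24 give the variation between 2 collections at the same phase, the first with transcripts of other organs. Their median absolute log2 difference was 0.11 in the rhythmic probe sets and 0.11 in all tested. A difference of at least 1.25-fold was seen in 22 of the 251 (8.76%) and in 908 of the 8663 (10.5%). The rhythmic gene with the largest such difference among those named here was phu, at 524 and 161. Both arrays share 1 fitted value, so a large difference works against a call. The values of the rhythmic probe sets are thus shaped by their selection.

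In the core clock loop 6 of 8 genes were rhythmic, against 3.003% of all genes, with a median amplitude of 0.81. Transcripts of the repressors per, tim, vri and cwo and of the activator Pdp1 rose through the light phase and were highest from ZT 12 to ZT 16. The light receptor cry had its fitted peak earlier, at ZT 4.91 (SE 0.358 h), against ZT 11.9 to ZT 14.4 for the other 5. This list and those that follow were drawn up with earlier results of these data known, so their counts are descriptions, to be read beside the share of all genes.

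The signals of per were 204, 267, 949, 1367, 1676, 470.2 and 215. They rose between ZT 4 and ZT 12, were highest 4 h after lights-off and were back at the starting level at ZT 24. The fitted peak was at ZT 13.1 (SE 0.289 h) with an amplitude of 1.59 (SE 0.11, n = 7 arrays, as for all fits below). For tim the signals were 1806, 1082, 5245, 7868, 7866, 5081 and 2039, lowest at ZT 4 and level between ZT 12 and ZT 16. Its fitted peak was at ZT 14.4 (SE 0.522 h). A dimmer probe set of tim peaked at ZT 14.5 with an amplitude of 1.74 (SE 0.18).

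In the second loop, vri had signals of 438, 691, 2436, 3809, 2966, 1116 and 481. It had the smallest p of all tested probe sets (adjusted p = 0.00126), and its fitted peak was 9.18 times its trough. Pdp1 had signals of 2594, 2702, 4748, 5897, 5443, 3687 and 2915, a smaller swing of 2.32-fold on a high level. The peaks of vri, at ZT 12.7 (SE 0.204 h), and Pdp1, at ZT 13.1 (SE 0.383 h), lay within their errors of each other. The signals of cwo were 1000.3, 1284, 1767, 1771, 1815, 1234 and 859, nearly level from ZT 8 to ZT 16, with an amplitude of 0.51 (SE 0.07, adjusted p = 0.0248).

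For cry the signals were 2830.2, 3286, 3042, 2104, 1163, 1352 and 2656. The gene was high in the light and lowest at ZT 16, with a fitted trough at ZT 16.9. Clk had signals of 665, 813, 495, 276, 246, 744 and 664. It was low at ZT 12 and 16 and rose between ZT 16 and ZT 20, and its amplitude of 0.81 (SE 0.15) was as large as that of cry, but the smooth curve missed the threshold (adjusted p = 0.062). For cyc, the partner of Clk, the signals were 803, 746, 756, 779, 827, 848 and 759, and no rhythm was called (amplitude 0.08, SE 0.04, adjusted p = 0.542). Without the ZT 0 array vri, per, Pdp1 and cry stayed rhythmic, and tim and cwo did not pass.

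**Figure D4:**
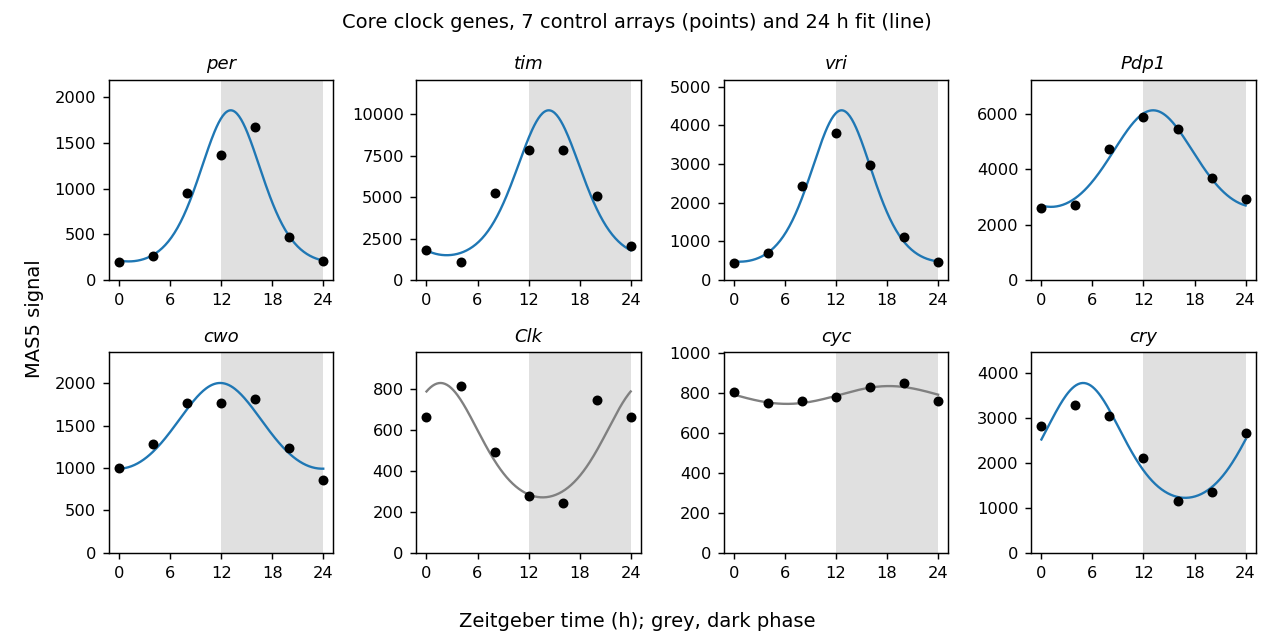
MAS5 signal (linear axes from 0) of the 8 core clock genes on the 7 control arrays (points) against zeitgeber time in hours, with the fitted 24 h curve (blue, rhythmic; grey, not called). The signal of per goes from 204 at ZT 0 to 1676 at ZT 16 and back to 215 at ZT 24, while cyc stays between 746 and 848.

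Of 18 tested genes that modify or degrade clock proteins, 3 (16.7%, against 3.003% of all genes) were rhythmic and all 3 peaked around dusk. Usp8, a deubiquitinase that acts on CLK, had signals of 366, 594, 2975, 3439.7, 1910, 728 and 367. It rose sharply between ZT 4 and ZT 8, and its fitted peak was 10.5 times its trough. The regulatory subunit tws of protein phosphatase 2A, which acts on PER, had signals of 1247, 1454, 2267, 2197, 2079, 1485 and 1380.5 and an amplitude of 0.43 (SE 0.06). The translation factor of per, tyf, had signals of 557, 676, 740, 834, 597, 540.5 and 522 in its brightest probe set, and other probe sets of tyf had amplitudes of 0.07 and 0.22 with adjusted p above the threshold. The kinase dco, which phosphorylates PER, had signals of 1828, 1907, 2034, 2226, 2058, 1675 and 1739 with an adjusted p of 0.182. The median amplitude of the 18 genes was 0.06, under that of all tested probe sets. Without the ZT 0 array 1 of the 3, Usp8, stayed rhythmic.

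A list of 27 tested genes described as clock outputs in fly heads held 12 rhythmic genes (44.4%, against 3.003% of all genes). Without ZT 0 the count was 8, and the list median amplitude was 0.43. Some members were taken from earlier results of these data, so the count and the median were partly set in advance. CG34134, of unknown function, had the largest amplitude on the list, 2.57 (SE 0.15). Its signals were 8313, 2292, 538, 277, 2285, 8833 and 9179, high around dawn and lowest at lights-off. Achl (achilles), which was not on that list, has been described as a clock output that restrains immune genes. It had signals of 526, 248, 28.0, 26.6, 367, 916 and 565. It was under 100 at ZT 8 and 12, so that its highest signal, at ZT 20, was at least 9.16-fold above the lowest. Both genes peaked before lights-on, at ZT 22.2 (SE 0.233 h) and ZT 21.5 (SE 0.422 h), and both stayed rhythmic without ZT 0.

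Other large rhythms with a dawn peak were those of CG42367, Nepl18 and lncRNA:CR32553, with amplitudes of 1.46, 1.05 and 1.01. CG31036 was under 100 at ZT 8 and 12, and its highest signal, 265 at ZT 20, was at least 2.65-fold above the lowest. The neprilysin-like peptidase Nepl18 had signals of 1451, 785, 455, 344, 979.7, 1353 and 1462. The long noncoding RNA lncRNA:CR32553 had signals of 329, 211, 107, 110.3, 155, 320 and 441. Nepl18 and lncRNA:CR32553 fell after lights-on and were lowest between ZT 8 and ZT 12.

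Of 14 tested UDP-glycosyltransferases, which couple sugars to toxins, odorants and hormones, 5 (35.7%, against 3.003% of all genes) were rhythmic. All 5 peaked between ZT 1.67 and ZT 4. The list's median amplitude was 0.31, and 10 of the 14 had an unadjusted p under 0.05. Ugt35B1 had signals of 3412, 2696, 1551, 696, 684, 1771 and 3263, a 5.61-fold fitted change. Its neighbor Ugt35A1 had signals of 264, 274, 239, 139.9, 123, 182 and 226. A second pair of neighbors, Ugt49B1 and Ugt49C1, had signals of 1382, 1515, 1098, 915, 864, 1068 and 1521 and of 1150, 1202, 972, 747, 615, 760.4 and 1019.9. In all 4 genes the lowest signal was at ZT 16. Without ZT 0, 4 of the 5 stayed rhythmic.

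Among 30 tested genes of glutathione transferases and glutathione synthesis 4 (13.3%) were rhythmic, and 3 of these had a dawn or morning peak. GstD10 had signals of 247, 285, 239.6, 171, 153, 202 and 255, and GstE9 had signals of 4750, 4785, 3814, 3368, 3589, 4046 and 5373. Both were lowest at ZT 12 or 16. The other was Gclm, the modifier subunit of the enzyme that limits glutathione synthesis, which had signals of 385, 403, 578, 608, 418, 332 and 343 and peaked at ZT 9.86 (SE 0.583 h). Of 52 cytochrome P450 genes 3 (5.77%, against 3.003% of all genes) were rhythmic, each at another time of day. Cyp6a21 peaked at ZT 0.866, Cyp305a1 at ZT 4.09 and Cyp4d21 at ZT 17.4. Cyp4d21 had signals of 4887, 3586, 3769, 6198, 7249.6, 7652 and 5282, highest in the dark. The median amplitudes of the lists were 0.14 and 0.17. Without ZT 0 the counts were 3 of 30 and 3 of 52.

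Genes of tyrosine degradation were looked at after their values had been seen. Of 6 tested genes 3 were rhythmic, with and without ZT 0, and all 3 peaked in the first 6 h of light. Hpd, the dioxygenase that makes homogentisate, had signals of 3294, 3598, 2884, 1772, 1396, 1878 and 3119. The homogentisate oxidase hgo had signals of 730.2, 935, 862, 607, 467, 486 and 627. GstZ2, of the zeta class that holds the next enzyme of the path, had signals of 509, 527, 381, 212, 182, 291 and 427. All 3 were lowest at ZT 16. The first enzyme, Tat, had signals of 7615, 7190.1, 7190.2, 6777, 6198, 5891 and 7873 with an amplitude of 0.18 (SE 0.06, adjusted p = 0.306), and the last, Faa, had signals of 663, 748, 749, 767, 649.7, 679 and 663 with an amplitude of 0.13 (SE 0.05, adjusted p = 0.332). The related GstZ1 had its fitted peak at ZT 21.7, outside the light phase, with an adjusted p of 0.0924.

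The takeout family encodes secreted carriers of small hydrophobic molecules. Of 5 tested genes on its list, 3 (60.0%, against 3.003% of all genes) were rhythmic. They are neighbors on 1 chromosome arm. CG7079 had signals of 1114, 869, 708, 585, 578, 853 and 1041, CG31189 had signals of 611, 619, 522, 298, 352, 512 and 711 and CG31207 had signals of 2293, 2409.5, 2094, 1824, 1531, 1847 and 2140.1. Each of these 3 was highest between ZT 24 and ZT 4 and lowest at ZT 12 or 16. Jhbp11, named for juvenile hormone binding but not on the list, was also rhythmic and had its fitted peak at ZT 11.4. Among 23 odorant-binding proteins 2 (8.70%, against 3.003% of all genes), Obp69a and Obp19b, were rhythmic, at nearly opposite times. Obp69a had signals of 493, 496, 297, 189, 183, 334 and 557, and Obp19b had signals of 671, 642, 710.4, 891, 890.4, 779 and 657. Without ZT 0 the counts were 2 of 5 and 1 of 23.

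In the eye, the phototransduction list had 3 rhythmic genes of 21 (14.3%, against 3.003% of all genes). The unadjusted p was under 0.05 for 9. The channel gene trpl, whose product carries part of the light response of photoreceptors, had signals of 11511, 15370.1, 18924, 20248, 15972, 11950.4 and 11679. It climbed through the light phase, was highest at lights-off and had an amplitude of 0.43 (SE 0.04). The scaffold inaD, which holds channel, kinase and phospholipase together, had signals of 7382, 6677, 6070.3, 4775, 4883, 6687 and 7313. It ran the other way, lowest at ZT 12. The phosphatase laza, which clears phosphatidic acid in photoreceptors, had signals of 1829, 1849, 1660.3, 1347, 1209, 1504 and 1798 and was lowest at ZT 16. The other channel gene, trp, had signals of 12525, 12985, 13442, 14886, 15525, 13887 and 12991 with an amplitude of 0.13 (SE 0.04, adjusted p = 0.234). Without ZT 0 only trpl of the 3 passed.

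Around the photoreceptors, Pdh, a retinoid dehydrogenase of the pigment cells, had signals of 19159.8, 19252, 16655, 12897, 13109.5, 15514 and 20289, and the lens protein gene Cpr72Ec had signals of 3939, 3826, 2833, 2575, 2170.2, 2346 and 3976. Both peaked between ZT 2.3 and ZT 2.91. The 3 markers of photoreceptors had no rhythmic gene, and their summed signal was highest at ZT 16. Of 21 genes of eye pigment and kynurenine metabolism 0 were rhythmic in limma's test, with 4 at an unadjusted p under 0.05. Of 18 tested cuticle proteins 3 (16.7%, against 3.003% of all genes) were rhythmic, namely Cpr72Ec, TwdlT and Cpr11B. Cpr11B had signals of 265, 397, 468, 485, 345, 239 and 206, highest at ZT 12, and was the 1 of the 3 that passed without ZT 0. Pdh did not pass without ZT 0 either.

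In the glia, e (ebony), the enzyme that couples amines such as dopamine and histamine to beta-alanine, had signals of 488, 317, 254, 228, 256, 388 and 454. It was highest at ZT 0 and 24 and lowest at ZT 12, with an amplitude of 0.54 (SE 0.06). The opposing hydrolase t (tan), named after its values were seen, had signals of 6072, 6578, 5636, 4144, 4005, 5793 and 8347 and missed the threshold (adjusted p = 0.056). Without ZT 0 e stayed rhythmic and t passed too (adjusted p = 0.0492). The glial gene bnb had signals of 3894, 4214, 4658, 5828, 5412, 4447 and 3767 and peaked at ZT 13, and did not pass without ZT 0. Of 20 tested genes of dopamine and other amines, e was the 1 rhythmic gene (5.0%, against 3.003% of all genes). Without ZT 0 the count was 2, e and t. DAT, the dopamine transporter gene, had signals of 565, 562, 471, 539, 576, 619 and 551 with an adjusted p of 0.345.

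Of 17 tested potassium channel genes, 2 (11.8%, against 3.003% of all genes) were rhythmic. Slob, which binds the potassium channel Slowpoke, had signals of 1572, 1409.6, 3294, 4357, 3754, 2303 and 1436, a 3.24-fold fitted change. Irk1, an inward rectifier, had signals of 620.3, 705, 843, 892, 933, 758 and 609.6. They peaked at ZT 13.1 and ZT 12.8. In the cAMP pathway 2 of 9 genes (22.2%) were rhythmic. The adenylyl cyclase rut had signals of 263, 349.6, 372, 365, 313, 251 and 264, highest in the light. Epac, an exchange factor switched on by cAMP, had signals of 473, 304, 230.4, 284, 465, 484 and 478, lowest at ZT 8 and high through the dark. The peaks lay at ZT 9.05 (SE 0.541 h) and ZT 20.4 (SE 0.372 h). Without ZT 0 Slob and Epac stayed rhythmic, and Irk1 and rut did not pass. The RING finger gene gol, which encodes a membrane-bound ubiquitin ligase, had signals of 817, 986, 4011, 7051, 4088, 2016 and 741. It was among the largest dusk rhythms, at 9.18-fold, and a dimmer probe set of gol peaked at ZT 10.4 with an amplitude of 0.33 (SE 0.07, adjusted p above the threshold).

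Other genes with large amplitudes in the day and at dusk had no well-known role. CG17005 had signals of 73.0, 354, 419, 350, 117, 73.0 and 60.1. It was high from ZT 4 to ZT 12 and under 100 at ZT 0, 20 and 24, so that its highest signal was at least 4.19-fold above the lowest. CG2121 had signals of 666, 1420, 1903, 2304, 1381, 794 and 688, with a peak at ZT 10.3. CG13856 and CG14132 were likewise highest at ZT 8, at 560.5 and 836, and CG14132 did not pass without ZT 0. The gene phu had signals of 524, 612, 494, 111, 47.6, 69.3 and 161. It was under 100 at ZT 16 and 20, so that its highest signal, at ZT 4, was at least 6.12-fold above the lowest, and it was rhythmic without ZT 0.

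Pepck2, CG5966, CG5853 and CG8419 were among the 8 genes of largest amplitude in the night window. Pepck2, a phosphoenolpyruvate carboxykinase, had signals of 1069, 536, 473, 522, 1162, 1650.1 and 1763. CG5966, a lipase-like gene, had signals of 924, 598, 599, 542, 1117, 1411 and 1352. Both were lowest at ZT 8 or 12 and higher on every array of the dark phase. CG5853, an ABC transporter, had signals of 1210, 668, 733, 1197, 1893, 1948 and 1336, and CG8419 had signals of 440.1, 172, 135, 177, 569, 552 and 430.4. These peaked at ZT 18.2 and ZT 19.7. Among genes named after their values were seen, G6P, a glucose-6-phosphatase, and Gfat1, the first enzyme of the hexosamine path, had amplitudes of 0.39 and 0.36 with peaks at ZT 17.8 and ZT 17.4. A dimmer probe set of Gfat1 had an amplitude of 0.03. Without ZT 0 neither CG5966, G6P nor Gfat1 passed, and Pepck2, CG5853 and CG8419 did.

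Of 18 genes of glycolysis and trehalose metabolism 0 were rhythmic in limma's test, although 7 had an unadjusted p under 0.05. Their median amplitude was 0.14. Pfk, the phosphofructokinase, had signals of 4138, 4270.3, 4227, 3949, 3276, 3014 and 3900.4 with an adjusted p of 0.112. Of 21 genes of fatty acid synthesis and storage 1 (4.76%, against 3.003% of all genes) was rhythmic. This was mdy, a diacylglycerol acyltransferase that makes storage fat, with signals of 1669, 1158, 990, 606, 902, 1362 and 1424 and a peak at ZT 23.9. The acyl-CoA synthetase bgm, whose loss harms the nervous system, was counted on a list of sleep genes instead. It was the 1 rhythmic gene of the 12 tested there (8.33%). Its signals were 5037, 5039.7, 4600, 3053, 2861, 2711 and 4019.6, with a peak at ZT 4.3. In purine metabolism Prat2, of new synthesis, peaked at ZT 4.9 and Aprt, of salvage, at ZT 19.6, and 7 other genes of the list did not pass. Without ZT 0 neither mdy, Prat2 nor Aprt passed, and bgm did.

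Of 8 tested antimicrobial peptide genes 1 (12.5%, against 3.003% of all genes) was rhythmic. Their median amplitude, 0.54, was above that of all tested probe sets. Drsl5, a drosomycin-like gene, had signals of 6307, 7380.4, 8981, 9958, 8045, 7040 and 5874 and peaked at ZT 11.1. The signals of Def were 247, 303, 598, 409, 1369, 524 and 357, those of AttD 115, 74.5, 108, 76.1, 438, 90.4 and 75.2 and those of Drs 2075, 2646, 4787, 3479.7, 7014, 3572 and 2615. All 3, named after their values were seen, were highest at ZT 16, and their adjusted p were 0.255, 0.497 and 0.213. On that 1 array Def was 1369 against 247 to 598 elsewhere, AttD 438 against 74.5 to 115 and Drs 7014 against 2075 to 4787. PGRP-LB, an amidase that damps the response to bacteria, had signals of 173, 259.6, 296, 306, 196, 189.5 and 192 and was rhythmic with a peak at ZT 8.91. Without ZT 0 neither Drsl5 nor PGRP-LB passed.

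Of 10 tested genes that respond to neuronal activity 0 were rhythmic in limma's test, 6 had an unadjusted p under 0.05, and the median amplitude was 0.22. Hr38 had signals of 112, 266, 184, 302, 175, 139 and 106, and sr had signals of 117, 188, 164, 237, 135, 94.3 and 149. Both were highest at ZT 12 with a second high value at ZT 4, and their adjusted p were 0.187 and 0.18.

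Of 51 functional lists, 36 had at least 10 tested genes, and 19 of these held no rhythmic gene (23 without ZT 0). At the 3.003% of all genes a list of 29 genes would hold under 1 rhythmic gene and a list of 57 under 2, so that an empty list is near this background. No list without a rhythmic gene gained one when ZT 0 was left out. The 57 genes of the respiratory chain and ATP synthase had 0 calls in limma's test, 0 at an unadjusted p under 0.05 and a median amplitude of 0.04. The 29 cytosolic ribosomal proteins had 0 calls, 0 at an unadjusted p under 0.05 and a median amplitude of 0.08. The 26 proteasome genes had 0 calls and 1 at an unadjusted p under 0.05, and the 21 genes of synaptic vesicles and active zones had 0 calls and 0. Of 24 neuropeptide genes 0 were called and 2 had an unadjusted p under 0.05. Of 69 mitochondrial ribosomal proteins 1 (1.45%) was rhythmic, mRpL11, with signals of 509.6, 431, 417, 503, 570.2, 609 and 496, and it did not pass without ZT 0.

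**Figure D5:**
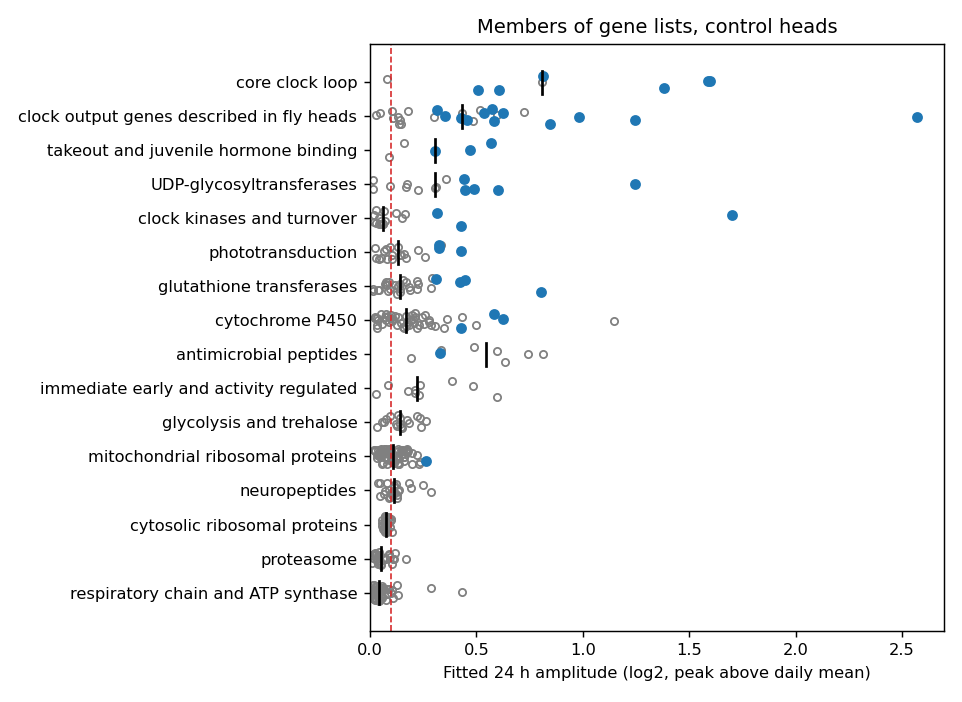
Fitted 24 h amplitude (log2) of the tested members of 16 gene lists in control heads; filled blue points were rhythmic, open points were not, black bars are list medians and the red dashed line is the median of all tested probe sets (0.10). The core clock list has a median of 0.81 and the respiratory chain list 0.04. Some genes of the clock output list were taken from earlier results of these data.

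Some rhythmic genes lay beside each other. Among 7101 pairs of tested genes adjacent on a chromosome arm, both were rhythmic in 16, and in 5 without ZT 0. The 16 pairs held 30 different genes. Of the 420 different tested genes beside a rhythmic gene these 30 (7.14%) were rhythmic, against 3.003% of all genes. In 9 of the 16 pairs the peaks were under 2 h apart. They included the pairs of UDP-glycosyltransferases, the takeout genes CG31189 and CG31207, and GstZ2 with phu. In other pairs the times differed, as for CG17005 and Mco1, at ZT 8.75 and ZT 13.7, and for CG1632 and Corp, at ZT 18.7 and ZT 4.67.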

How the data were processed

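The authors labeled head RNA with biotin and read it on Affymetrix arrays, and they deposited 1 intensity per probe set from MAS5, not log transformed. The MAS5 version was not given in the sources used here. Control probe sets were left out, and 13647 of 18769 others name 1 gene in the platform annotation. Symbols were updated through the Release 6 reference table, and a gene is given by its brightest probe set.

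From these intensities log2 values were computed and centred on the 75th percentile of each array, which lay between 570 and 578. Probe sets with a geometric mean of at least 100 over the 7 control arrays were fitted with a 24 h cosine and sine in limma 3.58.1 (R 4.3.3; 4 residual and 3.69 prior degrees of freedom), with Benjamini-Hochberg adjustment over all 8663. The code was tested on simulated data. The p-values measure the spread of single arrays around the curve, which may be technical, and the number of arrays limits the precision. Present calls were not used.

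The members and lists were chosen with earlier results of these data known. The naming rule took the core clock and clock turnover genes, the 10 genes of smallest p and the 8 of largest amplitude in each window. It also took up to 4 rhythmic members of each list and up to 5 markers of each organ. Apart from the organ markers it gave 90 genes, and the text prints only part of them. Other genes were named after their values were seen. Alternatives changed the scaling, filter, pseudocount, variance model, added terms and the arrays used.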

Additional observations from a re-analysis of the deposited data

Results flagged for a closer look

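Among the 90 genes that the naming rule gave, 1 had an array far from the others by Dixon's test, which flags about 1 in 20 groups by chance. The signal of wdb, a regulatory subunit of protein phosphatase 2A, was 261, 266, 254, 185, 307, 286 and 246 from ZT 0 to ZT 24. The gap below the array of ZT 12 was 0.595 of the whole log2 range, and no rhythm was called for wdb.

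The summed signals of 2 marker lists were also far from the others on 1 array. For the testis genes the gap between ZT 0 and the next array was 0.735 of the log2 range, and for the gut genes it was 0.722. The sum of the accessory gland genes was not flagged. These lists were already known to be high at ZT 0, so the gaps describe that array and are no independent support. The control RNA of ZT 0 is the only one with such high sums, and ZT 24, at the same phase, does not share them. How far this RNA moved the fitted rhythms of head genes was not tested beyond leaving out the array.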

How the results depend on the processing

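The fitted times of day moved little under the alternatives, while the count of calls changed. Part of this was built in. The 251 were chosen by p on the same arrays, and a change of filter or variance model leaves a fitted peak where it was. Of the 251 rhythmic probe sets all kept an unadjusted p under 0.05 in limma under each alternative that tested them, except that 243 did with median scaling and 250 with all 14 arrays, and no peak moved by more than 1.11 h. The count of calls depended on the spread assumed. It was 454 with an intensity trend in limma and 444 with all 14 arrays (230 shared). It was 0 without a signal filter (smallest adjusted p 0.144) and 0 with an F test that was not moderated (smallest adjusted p 0.0534). It was 111 with a straight line added, 64 with 12 h terms added and 60 at an adjusted p under 0.01. With 1 array left out it ran from 58 to 130. With no scaling, quantile normalization, median scaling, array weights, a pseudocount or other filters it was 231 to 323. Centring on the median shifted the array of ZT 0 by 0.26 on the log2 scale against the mean of the other 6. It shared 160 of its 291 calls with the 251. It raised the count of probe sets with a difference of ZT 0 and ZT 24 of at least 1.25-fold from 908 to 4252. Its smallest adjusted p in limma was 2.19e-133, too small to be taken at face value from so few arrays. Of the 73 rhythmic genes that the naming rule gave, 46 passed without ZT 0, 31 without ZT 16 and 56 with median scaling. With 1 array per time and 4 residual degrees of freedom, rhythms of small amplitude may go uncalled. No paired analysis was possible because the labels give each time point 1 control array and no groups were compared.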
